A study of Mus musculus with 10 samples.

Results

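The interferon response and MHC class I genes are 34 listed mouse genes, followed here in ventricles of mice that carry mutant alpha-tropomyosin transgenes. They were chosen by name: a gene counted as measured where at least 1 probe set of the array was annotated to its symbol alone, and its brightest such probe set was used. By this rule 31 of the 34 genes were measured, out of 12393 genes with a probe set of 1 symbol. Isg15 was left out because the probe set that lists it lists a second gene as well, and no probe set carried the name of Ifi44 or Ifi27 in the annotation used here. Among the 31 were 6 interferon-inducible GTPases, 10 antiviral effectors, 6 sensor and transcription factor genes, 6 genes of MHC class I and its peptide loading, and 3 genes of chemokines and a cytokine.

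Interferons are secreted signals of infection and inflammation. Type I interferons act through a receptor whose signal leads to binding at interferon-stimulated response elements, and interferon gamma acts through another receptor whose signal leads to binding at gamma-activated sites. The target genes include enzymes and GTPases that limit viruses and intracellular parasites, the peptide transporter and MHC class I molecules that display peptides to T cells, and chemokines that recruit those cells. Interleukin 15, the product of Il15, is a cytokine that keeps natural killer cells and memory T cells alive.

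Ventricular RNA was hybridised to 10 Affymetrix arrays, 3 of nontransgenic control mice (NTG), 3 of mice with the alpha-TM175 transgene (TM175) and 4 of mice with the alpha-TM180 transgene (TM180), with no treatment in any group. As background, both transgenes encode alpha-tropomyosin, a thin filament protein of the sarcomere, with a missense change known from inherited hypertrophic cardiomyopathy, and in published lines of this kind a cardiomyocyte promoter drives them. In each genotype 1 array carried RNA combined from 20 hearts (NTG array 3, TM175 array 3 and TM180 array 4), and the other 7 arrays carried individual extracts. Age, sex, strain and the number of founder lines were not given in the sources used here. Nothing states that the individual extracts came from separate litters or days, so p-values measure the spread between these arrays.

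Values are RMA intensities on a linear scale, and differences are on the log2 scale, where 1 is a doubling. Differences are model estimates ± standard error from limma, which fitted 1 mean per genotype and a term for extract type, and a probe set was called where the p-value adjusted by Benjamini-Hochberg over 22626 probe sets was under 0.05. An array's median intensity lay between 66.7 and 71.0, and the number of arrays limits the precision. The 10 cardiomyocyte markers each had a probe set, with a summed intensity of 58750 to 69230 per array. Actc1 entered this sum as written, at 7.323 to 9.144 per array. Its point may stand before the last 3 digits of a larger number, so its level is not settled. The highest sum was that of NTG array 2, in which 5 of the 10 markers were highest (against 7.64% of all probe sets). The part of this in the results was not tested. Arrays that stood apart are described here first. TM175 array 1 read 987.6 for Xist, the RNA that silences an X chromosome in females, against 99.5 to 136.2 in the other 6 individual arrays, and 7.23 for the Y-linked Eif2s3y. NTG array 2, an individual extract, stood apart in the members themselves. The differences from the controls that follow are given with and without it for the members described, singly or by role. Calls of genes outside the members are given with all arrays only. The pools differed too: Xist read 414.1 in the TM175 pool and 393.7 in the TM180 pool against 148.8 in the control pool, and Eif2s3y 38.30 and 35.29 against 46.66.

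In NTG array 2 the interferon and MHC class I genes were high together. It gave the highest value of the 10 arrays for 27 of the 31 members (87.1%), while it was highest for 7.64% of all 22626 probe sets. Among the 3 control arrays it was highest for 30 of 31, against 41.3% of all probe sets. The median member was 0.64 above its value in NTG array 1 on the log2 scale, where the median over all probe sets was 0.01, and 0.78 above its value in the control pool. A difference of at least 0.5 from NTG array 1 was seen for 18 members (58.1%), against 3.49% of all probe sets, and of at least 1 for 6 members (19.4%), against 0.256%. NTG array 2 is 1 extract, so nothing tests it against the other controls. The exceptions were Irf8, highest in TM180 array 2, Cxcl10 and Mx1, highest in TM175 array 1, and Il15, highest in the control pool.

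**Figure D1:**
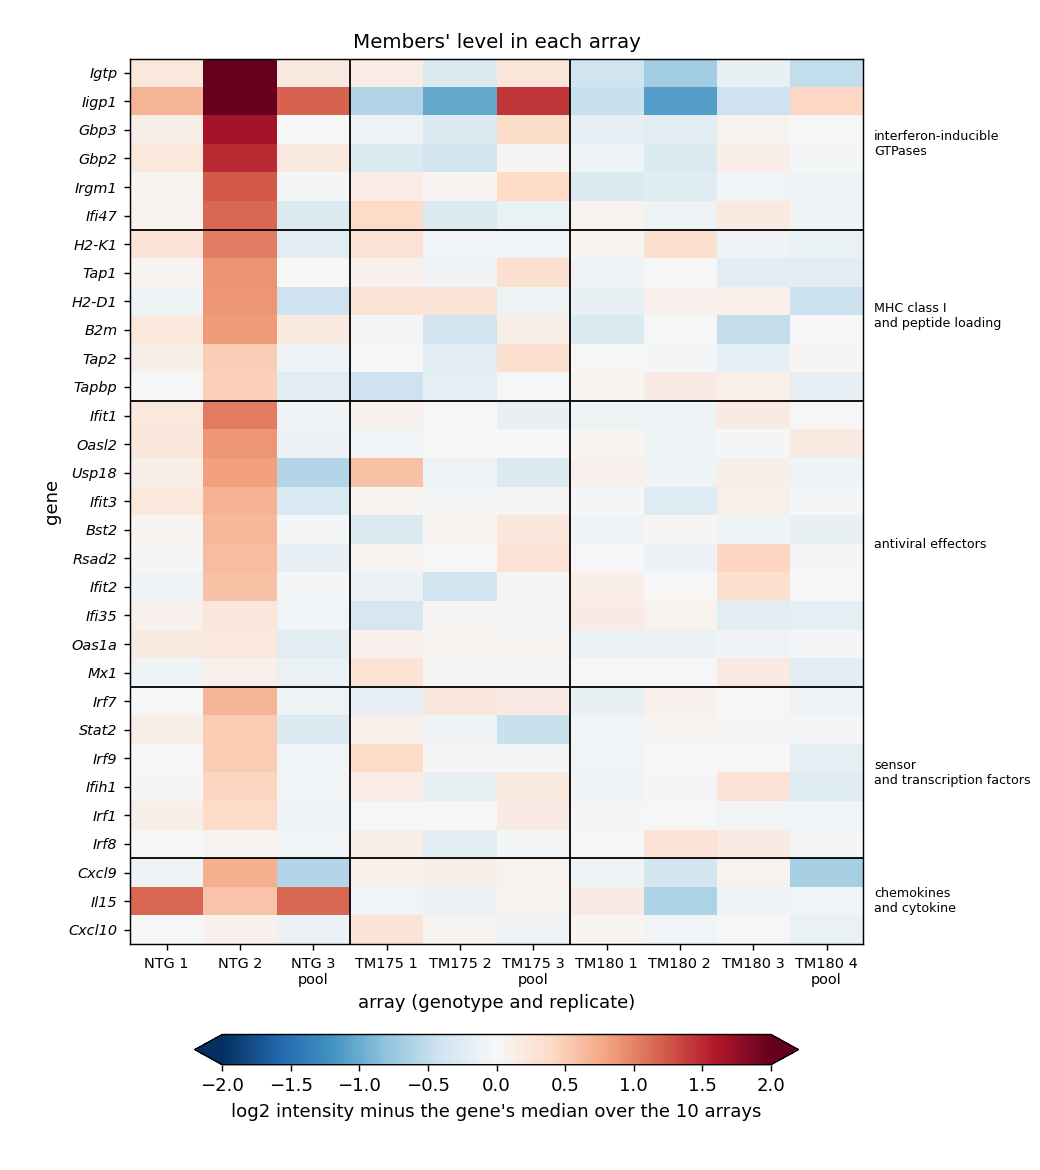
Log2 intensity of each measured member in each array, minus the gene's median over the 10 arrays; rows are genes grouped by role, columns are arrays grouped by genotype, and colours are cut at 2 in both directions. NTG array 2 is the highest array in 27 of 31 rows, while Il15 is high in all 3 NTG arrays.

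Il15 was the 1 member that passed the test against the controls, and it was lower in both transgenic lines. In replicate order, the controls read 323.6, 217.8 and 324.9, the TM175 arrays 141.3, 134.8 and 151.3, and the TM180 arrays 163.3, 94.35, 139.4 and 141.8; later series of values keep this order. All 7 transgenic arrays lay below all 3 controls, and the control nearest to them was NTG array 2, the array in which most other members were highest. The means were 289 ± 61.5 (SD, n = 3) in NTG, 142 ± 8.31 (SD, n = 3) in TM175 and 135 ± 29.0 (SD, n = 4) in TM180.

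Il15 fell 2.00-fold in TM175 (95% interval 1.51 to 2.64; log2 difference -1.0 ± 0.186, limma adjusted p = 0.0428). It was the 1 called member of 31 in that comparison (3.23%), where 0.734% of all probe sets were called lower and 0.128% higher. In TM180 it fell 2.13-fold (1.63 to 2.77; -1.09 ± 0.174, limma adjusted p = 0.00934) and was again the 1 called member, against 0.539% of all probe sets called lower and 1.47% higher. The lines themselves were not told apart: TM180 minus TM175 was -0.09 with a 95% interval of -0.47 to 0.29 (limma adjusted p = 0.753). Both comparisons share the 3 control arrays.

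Il15 was lower in both extract types, but its call was not stable. Individual extracts alone gave -0.94 for TM175 (limma adjusted p = 0.293) and -1.04 for TM180 (0.149), and the pools alone, with 1 array a genotype and no test, gave -1.10 and -1.20. The difference between extract types was -0.16 in both lines, with 95% intervals of -1.15 to 0.84 and -1.12 to 0.81. Without NTG array 2 the differences were -1.17 (limma adjusted p = 0.0170) and -1.27 (0.0132), in fits that called 3.51% and 0.455% of all probe sets lower. With no term for extract type the TM175 difference did not pass (limma adjusted p = 0.158) and the TM180 difference did (0.0384). In the 10 fits that each left out 1 array, TM175 passed in 4 (adjusted p of 0.0170 to 0.198), and it did not pass without TM175 array 1 (0.0872), 2 (0.0811) or 3 (0.151), TM180 array 4 (0.0784), NTG array 1 (0.15) or NTG array 3 (0.198). TM180 passed in 8 of 10 (0.00382 to 0.0726), and it did not pass without TM180 array 4 (0.0565) or NTG array 3 (0.0726).

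The readings of the chemokines Cxcl9 and Cxcl10, which attract activated T cells, did not follow those of Il15. Cxcl9 read 66.15, 115 and 46.21 in the controls, 73.87, 75.00 and 72.46 in TM175, and 66.01, 53.51, 72.80 and 43.92 in TM180, so that it was highest in NTG array 2 and lowest in the TM180 and control pools. Its difference was 0.06 ± 0.210 in TM175 and -0.32 ± 0.197 in TM180 (limma adjusted p = 0.880 and 0.515). With NTG array 2 left out it was 0.36 ± 0.156 and -0.02 ± 0.15 (limma adjusted p = 0.168 and 0.976). Cxcl10 varied little, between 25.58 and 33.51 over the 10 arrays. These values lay below every array's median intensity (66.7 to 71.0). A flat reading at that level cannot show an unchanged RNA level.

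**Figure D2:**
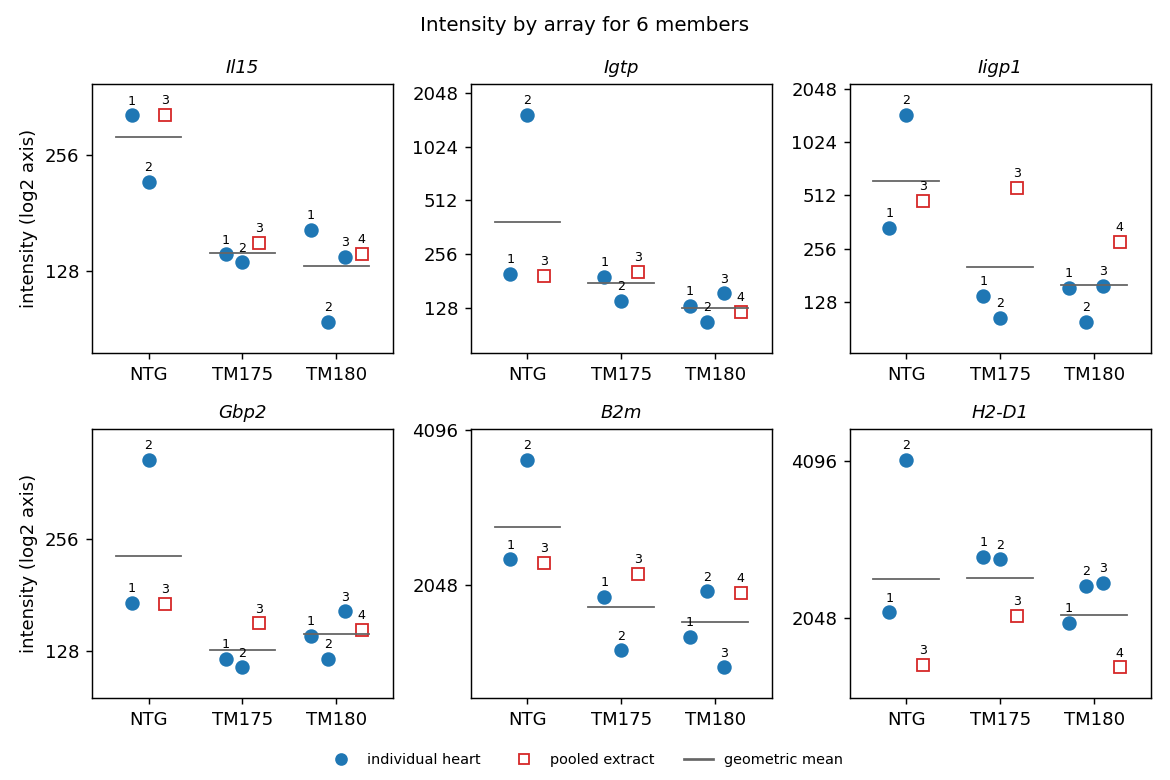
Intensity on a log2 axis for 6 members in NTG, TM175 and TM180; each point is 1 array with its replicate number, filled circles are individual hearts, open squares are pooled extracts, and lines are geometric means. Il15 is lower in all 7 transgenic arrays than in the controls, whereas for Igtp, Gbp2, B2m and H2-D1 the control mean is drawn up by array 2.

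The interferon-inducible GTPases, which act at the membranes around intracellular parasites, varied most. All 6 in this group were highest in NTG array 2, by a median of 1.42 (1.08 to 2.97) on the log2 scale over NTG array 1. Mx1, another GTPase gene, was counted with the antiviral effectors and was highest in TM175 array 1. Igtp, an immunity-related GTPase, read 198.0, 1551 and 193.1 in NTG, 190.2, 140.3 and 202.7 in TM175, and 130.5, 106.2, 153.9 and 121.4 in TM180. NTG array 2 was thus 7.83-fold above NTG array 1, which ranked 1 among all probe sets by that difference, while every TM180 array lay below every other array except TM175 array 2. Iigp1, another of the family, read 336.5, 1466 and 476.8 in NTG, 138.2, 103.3 and 567.2 in TM175, and 153.1, 98.09, 157.7 and 278.7 in TM180. Its pools were above the individual arrays of the same line in both transgenic groups. The values of 1551 and 1466 were written with a point before the last 3 digits in the deposited table and rest on reading that point as a separator, but the second Iigp1 probe set, which needed no such reading, gave 254.8 in NTG array 2 and 19.07 to 45.61 in the others.

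Gbp2, a guanylate-binding protein gene, read 172.0, 419.9 and 170.9 in NTG, 121.4, 115.3 and 151.6 in TM175, and 139.9, 121.8, 163.4 and 145.8 in TM180. Both transgenic groups lay below all controls. The probe set used is of a type that can match related genes. In a dimmer Gbp2 probe set TM175 array 3 read 152.8 and TM180 array 3 read 134.7, against 139.4 and 121.1 in NTG arrays 1 and 3. Its groups thus overlapped. Gbp3, of the same family, read 49.47, 144.9 and 46.22 in NTG, 42.58, 38.06 and 58.79 in TM175, and 40.71, 39.51, 48.09 and 45.40 in TM180. Apart from NTG array 2 its groups overlapped. Irgm1, which regulates the other GTPases of its family, read 213.5, 483.8 and 202.4 in NTG, 229.5, 212.7 and 274.3 in TM175, and 170.9, 175.6, 198.9 and 195.5 in TM180. Its TM180 arrays lay below all others. Ifi47 read 93.00, 196.6 and 72.55 in NTG, 116.9, 73.20 and 80.93 in TM175, and 93.08, 82.44, 100.3 and 84.55 in TM180, with groups that overlapped.

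No GTPase passed the test in either line, and the median difference of the 6 shrank in both lines when NTG array 2 was left out. Irgm1 changed sign in TM175, and Ifi47 did in both lines. The median of the 6 was -0.72 in TM175 and -0.70 in TM180 with all arrays, and -0.09 and -0.19 without NTG array 2, against 0.04 and -0.01 for all probe sets with all arrays. Igtp was -1.15 ± 0.578 in TM175 (limma adjusted p = 0.264) and -1.65 ± 0.542 in TM180 (0.162), and without NTG array 2 it was -0.14 ± 0.178 (0.621) and -0.61 ± 0.171 (0.129). Iigp1 was -1.62 ± 0.547 in TM175 (limma adjusted p = 0.133) and -1.87 ± 0.514 in TM180 (0.0962), and without NTG array 2 it was -0.77 ± 0.337 (0.166) and -0.99 ± 0.324 (0.190). Irgm1 was -0.21 ± 0.258 in TM175 and 0.21 ± 0.119 without NTG array 2, and in TM180 -0.58 ± 0.242 and -0.14 ± 0.114. Ifi47 was -0.31 and -0.32 in the lines, and 0.07 and 0.08 without that array, and Gbp3 was -0.60 and -0.68, and -0.03 and -0.09 without it. Gbp2 was -0.85 ± 0.278 in TM175 and -0.39 ± 0.138 without NTG array 2 (limma adjusted p = 0.126 and 0.106), and in TM180 -0.71 ± 0.261 and -0.24 ± 0.133 (0.221 and 0.490).

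**Figure D3:**
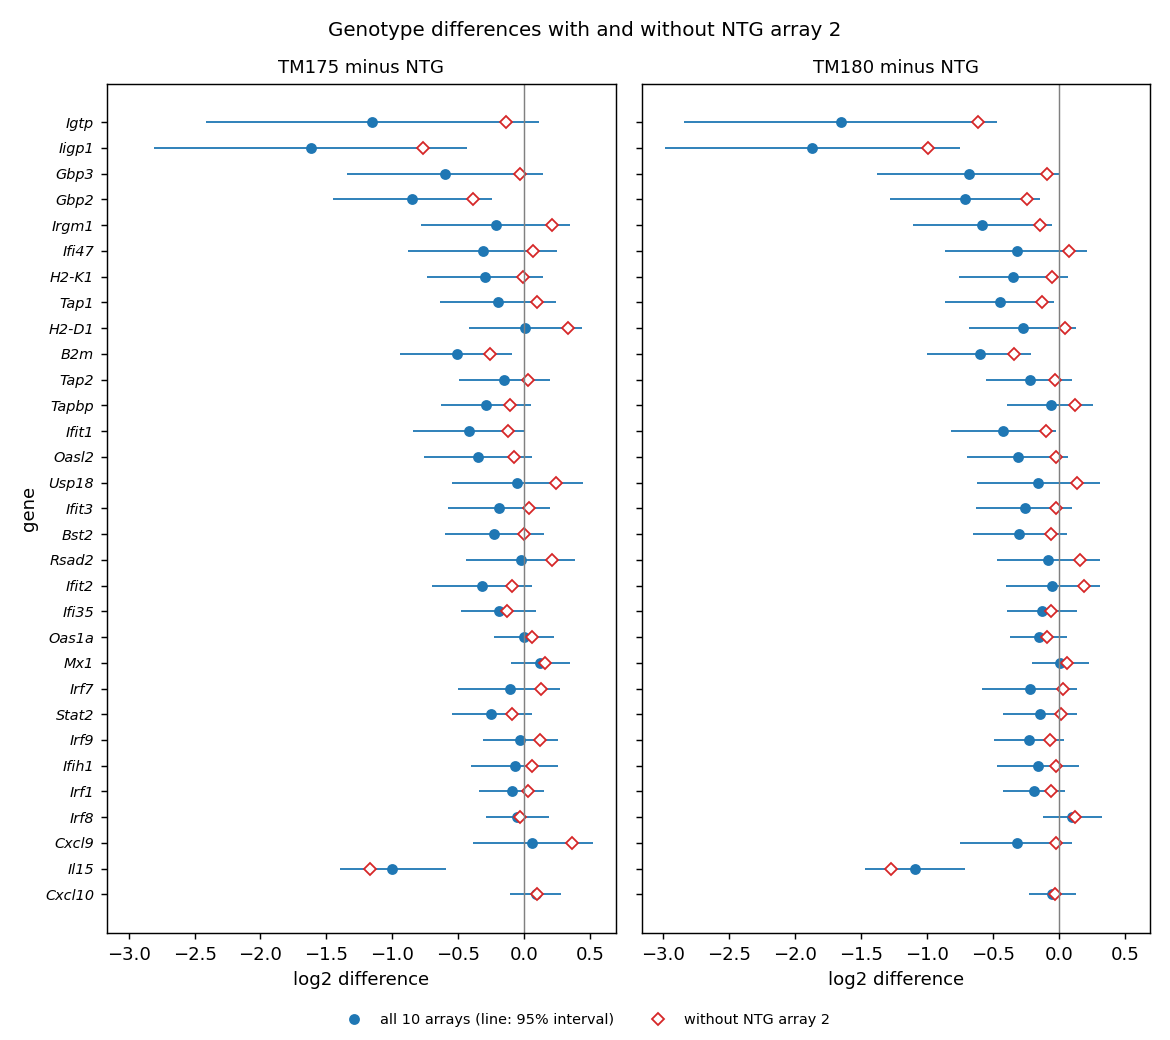
Log2 difference of each member in TM175 minus NTG (left) and TM180 minus NTG (right); filled circles with 95% intervals use all 10 arrays and open diamonds leave out NTG array 2. For TM175 the median member moves from -0.20 to 0.03 and for TM180 from -0.26 to -0.03, while Il15 moves further from 0.

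Promoters of the listed genes, measured or not, were searched for the core of the interferon-stimulated response element. This core is GAAA and a second GAAA with any 2 bases between them. The gamma-activated site, TTCNNNGAA, was searched for as well. Both strands of 300 bases were read, from 250 before to 50 after the annotated start. Promoters came from RefSeq (GRCm38.p6) and were found for 28 of the 34 listed genes. The response element core was in 14 of the 28, or 14 of their 34 windows (41.2%) against 3.44% of 32851 windows of all genes. The gamma-activated site was in 7 of the 28 genes, or 20.6% of the windows against 8.30%. The genes were chosen by name as interferon response and MHC class I genes, and not by their height in NTG array 2. Shares above those of all genes can follow from that choice. In Bst2 a match to each motif overlapped. Windows of 160 bases before the start are shown, for GTPases of both families, an antiviral effector and MHC class I genes, with matches in capitals. Igtp (chr11:58199396-58199555, + strand) holds a gamma-activated site followed by a response element core, Irgm1 (chr11:48871421-48871580, - strand) holds overlapping cores, and Gbp2 (chr3:142620503-142620662, + strand) holds the core on the opposite strand. Ifit1 (chr19:34640729-34640888, + strand) holds the core on the opposite strand at separate places, B2m (chr2:122147527-122147686, + strand) holds a single core far from the start, and H2-K1 (chr17:34000348-34000507, - strand) holds no match in this stretch.
Igtp: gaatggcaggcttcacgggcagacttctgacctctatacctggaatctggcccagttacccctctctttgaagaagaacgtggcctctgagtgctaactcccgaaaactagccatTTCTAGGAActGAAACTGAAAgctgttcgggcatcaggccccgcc
Irgm1: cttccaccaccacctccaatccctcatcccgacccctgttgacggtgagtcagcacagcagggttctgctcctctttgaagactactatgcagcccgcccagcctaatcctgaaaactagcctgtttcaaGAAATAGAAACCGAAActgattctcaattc
Gbp2: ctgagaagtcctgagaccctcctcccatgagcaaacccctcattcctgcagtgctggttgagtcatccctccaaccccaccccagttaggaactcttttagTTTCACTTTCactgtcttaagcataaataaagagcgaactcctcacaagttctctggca
Ifit1: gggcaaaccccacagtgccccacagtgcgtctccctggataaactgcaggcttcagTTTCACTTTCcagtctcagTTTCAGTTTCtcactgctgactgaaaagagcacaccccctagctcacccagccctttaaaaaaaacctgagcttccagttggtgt
B2m: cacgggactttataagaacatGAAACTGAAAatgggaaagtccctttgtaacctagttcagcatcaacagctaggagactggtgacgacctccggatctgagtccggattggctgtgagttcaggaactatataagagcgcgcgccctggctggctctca
H2-K1: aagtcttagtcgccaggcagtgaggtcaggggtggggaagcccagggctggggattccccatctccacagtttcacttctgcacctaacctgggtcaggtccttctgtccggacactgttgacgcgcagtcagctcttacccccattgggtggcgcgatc

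The height in NTG array 2 was set beside these letters as a description. Of the measured members with a promoter, the 13 with a response element core were a median of 0.63 above NTG array 1 on the log2 scale (0.04 to 2.97) and the 13 without it 0.67 (0.07 to 1.08). The 7 with a gamma-activated site had a median of 0.27 and the 19 without it 0.69. A match is a description of letters and not a measured binding site.

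**Figure D4:**
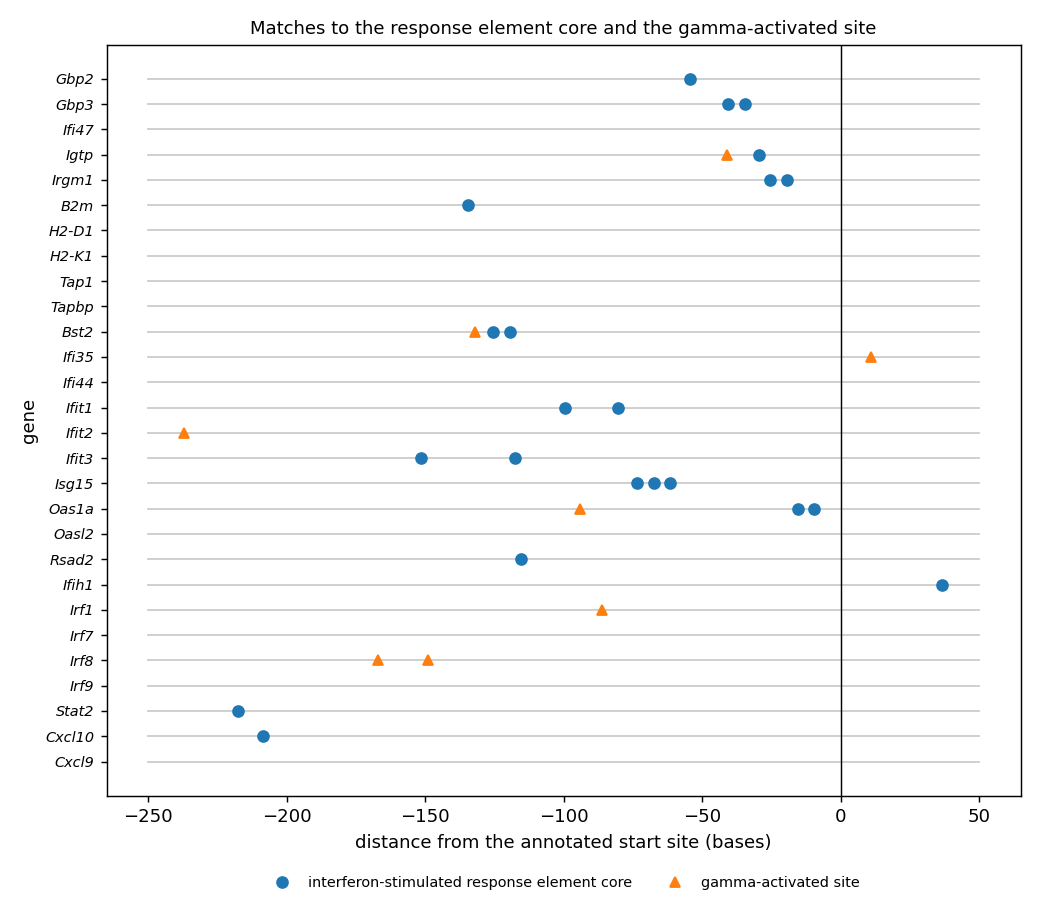
Position of matches to the response element core (circles) and to the gamma-activated site (triangles) in the promoter windows of the 28 listed genes that had one, as distance in bases from the annotated start site. Matches lie mostly upstream of the start, and Ifi35 and Ifih1 have theirs after it.

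The MHC class I genes were also high in NTG array 2, by a median of 0.69 (0.38 to 0.97) over NTG array 1 for the 6, all of them highest there. B2m, the light chain that every class I molecule needs, read 2295, 3581 and 2259 in NTG, 1942, 1528 and 2152 in TM175, and 1625, 1990, 1417 and 1975 in TM180. All transgenic arrays lay below all controls. The difference did not pass: it was -0.51 ± 0.194 in TM175 (limma adjusted p = 0.165) and -0.60 ± 0.182 in TM180 (0.129), and without NTG array 2 it was -0.26 ± 0.159 and -0.34 ± 0.152. In a dimmer B2m probe set the TM175 pool read 1417, above NTG arrays 1 and 3 (1316 and 1218), so that its groups overlapped.

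The heavy chain genes H2-K1 and H2-D1, which present peptides to cytotoxic T cells, did not separate the genotypes. H2-K1 read 1900, 3182 and 1341 in NTG, 1918, 1506 and 1515 in TM175, and 1627, 1964, 1498 and 1429 in TM180. H2-D1 read 2100, 4123 and 1664 in NTG, 2680, 2655 and 2068 in TM175, and 2004, 2357, 2390 and 1647 in TM180. In both genes the control pool was below both individual controls. With all arrays H2-K1 was -0.30 in TM175 and -0.35 in TM180, and without NTG array 2 -0.01 and -0.05; H2-D1 was 0.01 and -0.27, and 0.33 and 0.05 without it. Their probe sets are of a type that can match several class I genes, so the 2 genes' signals may be shared. The peptide transporter genes Tap1 and Tap2 and the loading chaperone gene Tapbp had differences of -0.20, -0.15 and -0.29 in TM175 and of -0.45, -0.22 and -0.06 in TM180, none of which passed. Without NTG array 2 they were 0.10, 0.03 and -0.11 in TM175 and -0.13, -0.03 and 0.12 in TM180.

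Antiviral effectors, which degrade or block viral RNA and particles, moved less. Outside NTG array 2, Ifit1, Ifit2, Oasl2, Usp18 and Mx1 read below the lowest array median of 66.7. So did Gbp3 among the GTPases. The part of low signal in the smaller differences was not tested. Of the 10 effectors, 9 were highest in NTG array 2, by a median of 0.62 (0.04 to 0.83) over NTG array 1 for the 10. Ifit1, which binds foreign RNA, read 55.27, 97.98 and 45.35 in NTG, 50.55, 47.51 and 43.00 in TM175, and 44.55, 45.19, 53.42 and 48.16 in TM180. Usp18, a protease that removes ISG15 from proteins and restrains the interferon receptor, read 38.07, 62.32 and 23.49 in NTG, 52.82, 32.87 and 28.95 in TM175, and 37.38, 33.09, 38.09 and 33.31 in TM180. Outside NTG array 2 both genes overlapped between the genotypes. Over the 10 effectors the log2 difference ranged from -0.42 to 0.12 in TM175 and from -0.42 to 0.01 in TM180, and without NTG array 2 from -0.13 to 0.24 and from -0.10 to 0.19. Mx1, the dynamin-like GTPase gene, ranged between 11.13 and 15.58 and was highest in TM175 array 1. Its narrow range at so low a level cannot show an unchanged RNA level.

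Among the sensor and transcription factor genes, 5 of 6 were highest in NTG array 2, by a median of 0.40 (0.07 to 0.69) over NTG array 1 for the 6. Irf7, which amplifies type I interferon production, was 1.61-fold and Irf9, a DNA-binding factor of the type I interferon response, 1.41-fold above NTG array 1. Irf1, which acts downstream of interferon gamma, was 1.21-fold and Irf8, a factor of the myeloid lineage, 1.05-fold above it. Differences from the controls lay between -0.25 and -0.03 in TM175 and between -0.23 and 0.10 in TM180 for the 6, and none passed. Without NTG array 2 these ranges were -0.09 to 0.13 and -0.07 to 0.12.

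Over all 31 members the median difference was -0.20 in TM175, with 27 below 0 (87.1% against 42.1% of all probe sets), and -0.26 in TM180, with 29 below 0 (93.5% against 52.6%). Without NTG array 2 the medians were 0.03, with 15 below 0, and -0.03, with 21 below 0. Members whose arrays all lay below the controls numbered 3 in TM175 (9.68%, against 8.11% of all probe sets), namely Il15, Gbp2 and B2m. In TM180 they numbered 6 (19.4% against 4.19%), namely those 3 with Igtp, Iigp1 and Irgm1. In dimmer probe sets Gbp2 overlapped with the controls in both lines, and B2m did in TM175. At an unadjusted limma p under 0.05, 4 members were lower in TM175 (12.9%, against 10.5% of all probe sets) and 8 in TM180 (25.8% against 6.55%), and 0 were higher in TM175 (against 11.6%) or in TM180 (against 7.76%). Without NTG array 2, 3 were lower (9.68% against 12.8%) and 2 higher (6.45% against 15.0%) in TM175, and 4 lower (12.9% against 7.08%) and 0 higher (against 6.75%) in TM180. Between the lines limma called 0 of 31 members (0.0265% of all probe sets), and 0 had an unadjusted p under 0.05 (25.4%). Oas1a and Irgm1 were lower in all TM180 than in all TM175 arrays (2 members, 6.45% against 7.37% of all probe sets). In these whole-tissue samples, fewer cells of a type and less RNA per cell cannot be told apart.

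The members' median difference was set out by extract type. In individual extracts the median member was -0.44 in TM175 and -0.39 in TM180, and both of these compare with NTG arrays 1 and 2. In the pools it was 0.20 and -0.01, from 1 array a genotype. Over the members the median of pooled minus individual difference was 0.66 for TM175 and 0.39 for TM180, and 0.34 and 0.06 without NTG array 2. The test of this difference by limma called 0 of 31 members for TM175 (0.00442% of all probe sets) and 0 for TM180 (0.0%), and 5 and 4 members had an unadjusted p under 0.05 (16.1% against 5.39%, and 12.9% against 1.95%). These unadjusted counts were 3 (9.68% against 4.75%) and 2 (6.45% against 1.67%) without NTG array 2, and limma again called 0 and 0. Iigp1 had the widest gap in TM175, at 2.81 ± 0.947 (limma adjusted p = 0.893), and 1.74 ± 0.457 without NTG array 2 (0.366).

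Between extract types, with genotype in the model, H2-D1 was the 1 called member (-0.54 ± 0.168 in pools, limma adjusted p = 0.0383), where 12.1% of all probe sets were called lower and 9.99% higher. The call was lost without TM175 array 1 (0.0551), 2 (0.0569) or 3 (0.0874), TM180 array 2 (0.0572), 3 (0.0561) or 4 (0.110), or NTG array 3 (0.200). Iigp1 was higher in the pools by 0.92 ± 0.465 (limma adjusted p = 0.167) and passed without NTG array 2 (1.33 ± 0.264, 0.00816) and without NTG array 3 (1.62 ± 0.462, 0.0459). Most members went the other way: the median was -0.12, with 27 of 31 below 0, against a median of -0.05 over all probe sets. The share of all probe sets below 0 is not given here. Without NTG array 1, Irf9, Stat2, Usp18 and Cxcl9 were also called, all lower in pools. Stat2 was called lower without TM180 array 4, Usp18 without TM175 array 2 and Cxcl9 without TM175 array 3.

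Of 70 other genes of the interferon and antigen presentation pathways 58 were measured. In NTG array 2, 20 of the 58 were highest, against 7.64% of all probe sets. Irgm2, a further GTPase, read 665.5 there and 49.28 to 94.59 in the other arrays. Gbp6 (268.1 against 27.91 to 65.91), Gbp7 (536.1 against 96.49 to 165.4) and the immune checkpoint ligand gene Cd274 (96.03 against 30.25 to 47.94) also stood above all other arrays; these 4 were named after their values were seen. Of the 58 probe sets that were at least 1 above NTG array 1 in NTG array 2, 10 belonged to members and 4 to this list. In the genotype comparisons 1 of these 58 measured genes passed in TM175 and 1 in TM180, both lower. Of all probe sets 0.734% and 0.539% were called lower. Ifngr2, a chain of the interferon gamma receptor, fell in TM175 (-0.85 ± 0.170, limma adjusted p = 0.0469), where it read 414.4, 550.5 and 343.3 against 786.4, 679.3 and 856.3 in NTG. Psme1, a proteasome activator subunit, fell in TM180 (-0.53 ± 0.100, limma adjusted p = 0.0190), and NTG array 2 was its highest control at 1103. Neither difference is given here without that array.

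Some genes of MHC class II, whose products present peptides to helper T cells, were also lower in the lines. Their summed intensity over 6 measured markers was 1313 to 2151 in NTG, 743.3 to 939.6 in TM175 and 683.4 to 943.0 in TM180. Of the 6, 4 were highest in NTG array 2, against 7.64% of all probe sets. H2-Aa and H2-Ab1 were called lower in both lines (2 of 6 in TM175, against 0.734% of all probe sets) and Cd74 in TM180 (3 of 6, against 0.539%). The H2-Aa and H2-Ab1 probe sets are of types that can match related genes, so their signals may be shared. H2-Eb1 read 76.17, 94.87 and 70.26 in NTG and 95.91, 88.99 and 77.76 in TM175, and the class II activator gene Ciita 30.43, 34.43 and 29.36 against 34.43, 42.20 and 35.16, and neither was called in that line, where their values overlapped with or reached above the controls. NTG array 2 was the highest control for H2-Aa (648.5) and Cd74 (808.3) and the lowest for Il15. The medians of -0.75 and -0.74 over the 6 became -0.49 and -0.52 without NTG array 2. Postn, a matrix gene of activated fibroblasts, rose in both lines, and Col1a1, Col1a2 and Lum rose in TM180. The summed fibroblast markers were 3909 to 5529 in NTG, 5435 to 8068 in TM175 and 6647 to 9891 in TM180, with NTG array 2 the lowest of all arrays. The part of these cell types in the Il15 difference was not tested.

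Marker lists of other cell types were read in NTG array 2 in the same way. Of the markers measured, 1 of 12 for macrophages, 1 of 10 for T and NK cells and 1 of 5 for B cells were highest in that array. So were 0 of 4 for neutrophils, 1 of 4 for dendritic cells and 0 of 9 for endothelium, against 7.64% of all probe sets. The median marker was above NTG array 1 by 0.33 for dendritic cells, 0.30 for neutrophils, 0.27 for T and NK cells and 0.20 for B cells, and below it for macrophages (-0.11) and endothelium (-0.13), against 0.01 for all probe sets. The part of these cells in the height of the members in that array was not tested. The summed intensity of T and NK cell markers was 572.0 in NTG array 2, 479.4 and 492.1 in the other controls, 546.4 to 614.3 in TM175 and 465.1 to 517.6 in TM180. For macrophages it was 3239 in NTG array 2, and 3065 to 3609 in NTG, 2417 to 3588 in TM175 and 3417 to 3781 in TM180. B cell markers summed to 190.8 in NTG array 2, and 150.3 to 190.8 in NTG, 159.4 to 210.7 in TM175 and 138.7 to 173.2 in TM180. Neutrophil markers summed to 282.6 in NTG array 2, and 230.3 to 282.6 in NTG, 243.9 to 313.8 in TM175 and 212.4 to 252.2 in TM180. Dendritic cell markers summed to 321.0 to 409.9, 309.0 to 401.0 and 283.1 to 356.8, with NTG array 2 the highest of the 10 arrays. Of the 409.9 there, Flt3 alone gave 308.5. Itgax, Xcr1 and Ccr7 were each highest in a TM175 array. Endothelial markers summed to 3037 to 3333 in NTG, 3016 to 4276 in TM175 and 3296 to 4174 in TM180, where Cd34 was called higher (0.70 ± 0.124, limma adjusted p = 0.0142). RMA gives no value of 0, so absence of a marker cannot be read from these intensities.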

How the data were processed

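Ventricular RNA of 10 samples was measured on Affymetrix arrays. Per the submitters' processing notes the authors used RMA (background correction, quantile normalization, probe summary; no version given), and the deposited values are intensities on a linear scale. Values of 1000 or more were deposited with a point before the last 3 digits. This mark was undone for 7870 values in 1058 of 22690 probe sets, by the digits and the other arrays of each probe set, and 228 probe sets stayed unsettled. As a check, the settled values were written with the same mark and read back by the same rule, with 0 errors in 224620 values. The unsettled probe sets were left out of this check, and the assumption itself was not tested. No value was floored before log2.

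The 64 controls were set aside. Of the 22626 others 20380 had 1 gene symbol in the platform annotation, 691 several and 1555 none. A gene's value is its brightest probe set with 1 symbol, settled sets first. Log2 values of all 10 arrays were fitted with limma 3.58.1 in R 4.3.3 (two-sided, Benjamini-Hochberg, called under 0.05), with a mean per genotype and a term for extract type; a second fit held their interaction. Intervals are 95%. The members, lists and tests were chosen with earlier results of these data known. Values per array are given for members called in a genotype comparison or interaction and for the 8 of widest range, and others were named after their values were seen. Tables and plots were made in Python 3.11.15 with pandas 2.3.3, numpy 2.4.6 and matplotlib 3.10.9. Alternatives varied the covariate, block, weights, scaling, filters, probe set choice and arrays included.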

Additional observations from a re-analysis of the deposited data

Results flagged for a closer look

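Rsad2, the gene of the antiviral enzyme viperin, stood out in 1 TM180 array in its brightest probe set. Its intensity was 196.4, 182.2, 267.8 and 194.8 in TM180 arrays 1 to 4, and the gap from array 3 to the next value was 0.834 of the group's range, just above Dixon's critical value for 4 arrays. Among the 31 members this was the 1 group of 4 past that value, and chance flags about 1 in 20 groups. The 267.8 lay below the value of 302.2 in NTG array 2. In the dimmer Rsad2 probe sets the highest TM180 array was the pool, array 4, at 39.37 and 41.29. There array 3 read 29.11 and 22.50, and NTG array 2 read 28.74 and 24.89.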

How the results depend on the processing

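Of 171 alternative values for the counts and medians, 146 stayed with the reported value, 25 moved by more than the limit set for them and none reversed a call. The count of members called in TM175 was 0, in place of 1, with no covariate, in individual extracts only, with only the groups compared and with the replicate block, and 0 to 1 when single arrays were left out. In TM180 it was 0 in individual extracts only and with the replicate block, and 0 to 1 without single arrays. Between extract types it was 3 with array weights, 2 with quantile normalization again, 2 with an intensity trend and robust fit, and 0 to 5 without single arrays. The TM175 median was -0.44 in individual and 0.20 in pooled extracts, and -0.39 to 0.03 without single arrays, the 0.03 being the fit without NTG array 2. The TM180 median was -0.01 in pooled extracts and -0.41 to -0.03 without single arrays, and the median between lines -0.18 to 0.04. The cause was not tested.

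With replicate number as a block, Il15 was -1.0 in TM175 (limma adjusted p = 0.102) and -1.12 in TM180 (0.0675), and the members' medians were -0.20, -0.34 and -0.15. That fit uses up TM180 array 4, the only array of its number. Residuals of same-numbered arrays, from the fit with genotype and extract type, correlated between -0.645 and 0.302. With so few arrays that fit itself shapes the correlations. Whether same-numbered arrays share more than a number cannot be read from them. The 3 controls, of which 1 stands apart, limit every comparison with NTG.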

Other observations

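The 10 probe sets with the largest excess of NTG array 2 over NTG array 1 included some beyond the genes listed. They were BC023105 (5.10-fold), a probe set shared by Tgtp2 and Tgtp1 (4.33-fold), Ntmt1 (4.31-fold) and a probe set with no symbol (4.09-fold). These were named after their values were seen. Of the 10, 3 were probe sets of members and 3 of the other interferon and antigen presentation genes. Of 22 member probe sets not used because a brighter one existed, 12 were highest in NTG array 2, against 7.64% of all probe sets.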
